A study of Mus musculus with 223 samples.

Results

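Tiam1, Tiam2, Mpped1 and Mpped2 were followed across single Htr3a-GFP+ cortical interneurons (INs) of the mouse, as 4 genes of the 43629 in the count table. Tiam2 and Mpped2 were chosen by their enrichment in type 1 INs of these same cells, from their pooled level and share of cells, and Tiam1 and Mpped1 were set beside them as paralogues. The values of Tiam2 and Mpped2 in type 1 against the other types are therefore a description of that choice. The intervals printed beside them state counting error and test nothing. The cells came from Htr3a-GFP transgenic mice of the C57BL/6 background, in which GFP is driven by Htr3a regulatory sequences, so that a GFP+ gate takes cells by the transgene and not by a cell type as such. They were sorted from cortex at embryonic day (E) 18 and postnatal days (P) 2 and 5. E18 gave 82 cells, P2 gave 66 and P5 gave 75, all of 1 genotype and untreated. The E18 cells carry no type. The authors assigned each postnatal cell to type 1, 2 or 3 from these counts, clustering the cells of each age separately. This gave 22, 31 and 13 cells at P2 and 34, 19 and 22 cells at P5.

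Brains of an age were pooled before sorting, and the E18 and the P5 cells were each captured on more than 1 chip. The labels name no animal or pool, and cells do not replicate a condition. No p-value was therefore computed, and the intervals below cover counting error over read pairs or cells only. Mapped read pairs per cell ranged from 3707601 to 15840130 with a median of 9463033, and the median on annotated genes was lower in type 3 INs (2802948 at P2 and 2620272 at P5) than in the other groups (4974305 to 5614669). At least 1 of 8 IN markers (Gad1, Gad2, Dlx1, Dlx2, Dlx5, Dlx6, Slc32a1 and Htr3a) lay above 10 RPM in 79 of 82 E18 cells, 21 of 22 P2 type 1 cells, 29 of 31 P2 type 2 cells and all cells of the other groups. Dlx2 was at 0 in P2 type 3 cells. Library sets are named here A to D from a number in the labels whose meaning is not given. All P2 cells came from set A and no other cells did, so age P2 and set A cannot be told apart. The E18 and P5 cells were spread over sets B, C and D.

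Tiam1 and Tiam2 encode guanine nucleotide exchange factors that load the small GTPase Rac with GTP. Rac in its GTP form acts through the WAVE complex and PAK kinases on branched actin, and Tiam proteins are known for roles in neuronal polarity, migration, neurite growth and spine formation. Mpped1 and Mpped2 encode metallophosphoesterases expressed in developing brain. Mpped2 hydrolyses cyclic nucleotides in vitro, and Mpped1 is also known as a transcript of cortical excitatory neurons.

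The 4 genes lie on different chromosomes of GRCm38. Tiam1 (ENSMUSG00000002489) spans chr16:89787111-90143769 on the minus strand. On the plus strand, Tiam2 (ENSMUSG00000023800) spans chr17:3326573-3531344, Mpped1 (ENSMUSG00000041708) chr15:83779467-83858494 and Mpped2 (ENSMUSG00000016386) chr2:106693269-106868356. The union of annotated exons is 10048 bases for Tiam1, 12741 for Tiam2, 4295 for Mpped1 and 3425 for Mpped2. Exons of Tiam2 share 1.11% of their bases with Tfb1m on the opposite strand, and the exons of the other 3 genes overlap no annotated exon of another gene. Levels are in RPM, the count of read pairs scaled to 1000000 mapped read pairs. Tfb1m was also higher in type 1, at 3.02 RPM (above 10 RPM in 1 of 22 cells) against 0.0656 and 0 in types 2 and 3 at P2, and at 12.2 RPM (above 10 RPM in 8 of 34 cells) against 0.260 and 0.0691 at P5. It was at 5.62 RPM at E18. Whether counting used strand is not given, so reads in the shared bases cannot be assigned between both genes.

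A promoter window is shown for each gene so that the genes chosen for type 1 can be set beside their paralogues. Each window is from RefSeq on GRCm38.p6, runs 5′ to 3′ on the gene's strand from 250 bases before a start site to 50 bases after it, and was the listed window nearest to the start of an annotated coding transcript. Tiam1 and Mpped1 each had 2 windows at such a start, of which the more upstream is shown. The windows are chr16:89974650-89974949 (minus) for Tiam1, chr17:3396957-3397256 (plus) for Tiam2, chr15:83779773-83780072 (plus) for Mpped1 and chr2:106692931-106693230 (plus) for Mpped2. Capitals mark matches on either strand to TGACAG (the MEIS core), CCGGAA (an ETS core, the family of Etv1), GGGCGG (the GC box of the SP family) or TGACCT (the direct-repeat unit of the Nr2f family), and no match overlaps another motif.
Tiam1: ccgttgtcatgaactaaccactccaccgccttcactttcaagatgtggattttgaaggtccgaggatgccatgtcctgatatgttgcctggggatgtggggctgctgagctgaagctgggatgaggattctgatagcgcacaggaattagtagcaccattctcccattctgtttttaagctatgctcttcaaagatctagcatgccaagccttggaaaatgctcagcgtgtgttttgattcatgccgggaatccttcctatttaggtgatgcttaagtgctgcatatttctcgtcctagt
Tiam2: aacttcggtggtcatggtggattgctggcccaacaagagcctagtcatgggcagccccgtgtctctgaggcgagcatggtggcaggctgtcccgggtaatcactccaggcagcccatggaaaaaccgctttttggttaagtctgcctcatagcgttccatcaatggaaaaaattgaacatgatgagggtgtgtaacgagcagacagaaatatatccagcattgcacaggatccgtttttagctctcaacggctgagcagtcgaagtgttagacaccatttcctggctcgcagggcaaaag
Mpped1: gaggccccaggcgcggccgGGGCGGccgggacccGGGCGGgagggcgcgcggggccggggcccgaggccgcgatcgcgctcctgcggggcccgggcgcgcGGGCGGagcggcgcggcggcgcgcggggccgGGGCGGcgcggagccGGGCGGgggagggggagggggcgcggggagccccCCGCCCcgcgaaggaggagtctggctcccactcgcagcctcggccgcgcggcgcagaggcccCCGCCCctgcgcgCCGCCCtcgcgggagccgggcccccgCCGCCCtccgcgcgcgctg
Mpped2: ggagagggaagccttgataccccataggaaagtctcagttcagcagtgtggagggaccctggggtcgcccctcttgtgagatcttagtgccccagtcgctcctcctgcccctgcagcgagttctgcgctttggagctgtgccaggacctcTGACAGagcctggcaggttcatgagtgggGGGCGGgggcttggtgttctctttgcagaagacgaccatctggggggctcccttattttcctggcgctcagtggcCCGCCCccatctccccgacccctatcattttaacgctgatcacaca

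The windows differed in base composition. The Mpped1 window shown was 89.3% G or C with 59 CG pairs and 9 GC boxes, beside medians of 52.7% and 7 CG pairs over 32817 mouse promoter windows of the same length. Its tied window, chr15:83784579-83784878, was 47.3% G or C with 3 CG pairs and none of the motifs, so the composition depends on the start site taken. The Mpped2 window (60%) held 1 MEIS core and 2 GC boxes, 1 on each strand. Neither Tiam window (47% for Tiam1 and 51.3% for Tiam2) held any of the 4 motifs, and no such letters lay in the other windows listed for these genes apart from 2 further Mpped2 windows. Of all windows, 19.2% hold the MEIS core, 14.9% the ETS core, 35.6% the GC box and 16.3% the Nr2f unit. Which start site the cells used was not measured.

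Tiam2 was above 10 RPM in most type 1 INs and in few cells of type 3 or of E18. At P2 its level in the 22 type 1 cells ran from 0 to 1402 RPM with a median of 59.6. In the 31 type 2 cells the median was 0 and the highest value 183.3, and in the 13 type 3 cells the median was 0 and the highest value 46.6. At P5 the 34 type 1 cells ran from 0 to 2397 RPM with a median of 255, the 19 type 2 cells from 0 to 1200 with a median of 2.72, and the 22 type 3 cells from 0 to 211.8 with a median of 0.0478. Type 1 cells thus overlapped the other types both through cells at or near 0 and through cells above 10 RPM. Of the 19 type 2 cells of P5, 9 lay above 10 RPM, from 35.7 to 1200. The type 1 cells above that level ran from 24.6 to 2397 at this age. The highest type 3 cell of each age also lay among the type 1 cells above 10 RPM. Among the 82 E18 cells the median was 0 and the highest value 829.

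**Figure D1:**
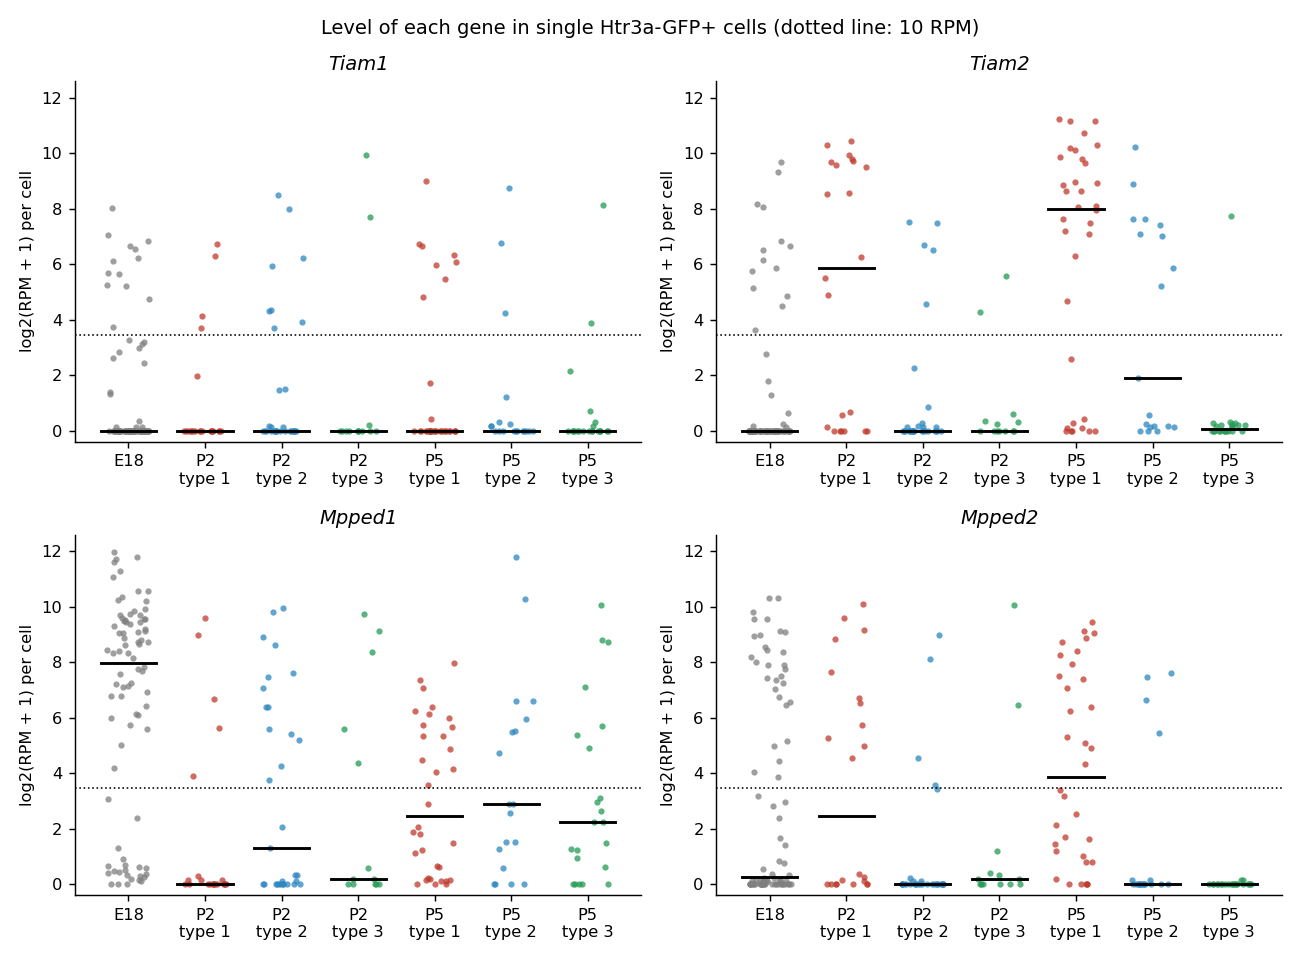
Level of each gene in every cell, as log2(RPM + 1) on the vertical axis, by group on the horizontal axis. Each point is a cell, black bars are medians and the dotted line is 10 RPM. Tiam2 medians lie above that line only in type 1 INs, at 59.6 RPM at P2 and 255 RPM at P5, and the Mpped1 median lies above it only at E18, at 254 RPM.

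Pooled over cells, Tiam2 stood at 391 RPM (exact 95% Poisson interval 389 to 394) in P2 type 1 INs, 20.02 in type 2 and 6.00 in type 3. At P5 it stood at 532 RPM (529 to 534) in type 1, 124.8 in type 2 and 9.34 in type 3, and at E18 at 32.7 RPM. The share of cells above 10 RPM, the level taken as expression, was 13 of 22 (59.1%, exact 95% binomial interval 36.4 to 79.3) in P2 type 1 INs and 24 of 34 (70.6%, 52.5 to 84.9) in P5 type 1 INs. It was 5 of 31 and 2 of 13 in types 2 and 3 at P2, 9 of 19 (47.4%, 24.4 to 71.1) in P5 type 2, 1 of 22 in P5 type 3 and 14 of 82 (17.1%) at E18. With at least 1 read pair as the threshold, 29 of 34 type 1 INs and 27 of 41 cells of the other types held Tiam2 at P5, and the difference of 46.2 points above 10 RPM became 19.4, with an interval (-0.467 to 36.8) that spans 0. Among cells above 10 RPM the median was 762 RPM in P2 type 1 and 474 in P5 type 1 INs, against 167.8 in P5 type 2 INs. In order of share, the P5 type 1, P2 type 1 and P5 type 2 INs came first, and the exact intervals of these 3 shares overlap. The next group, E18, was 30.3 percentage points below P5 type 2 (Newcombe 95% interval for counting error 8.09 to 52.2), and the counting intervals of the differences between the remaining neighbours span 0.

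The Tiam2 share in type 2 INs, a type drawn at each age separately, was 31.2 points higher at P5 than at P2 (5.28 to 54.03). In type 1 INs it was 11.5 points higher, with an interval (-12.8 to 35.4) that spans 0. Type 3 INs had 10.8 points fewer at P5 (-38.0 to 9.65). At P5 the type 2 share exceeded that of type 3 by 42.8 points (16.4 to 64.1), whereas at P2 these types were 0.744 points apart (-27.6 to 20.6). Levels of the type factors differed between these ages as well. Meis2 went from 6.22 to 177.2 RPM in type 2 INs (3 of 31 to 7 of 19 cells above 10 RPM) and Etv1 from 16.6 to 134.6 RPM (3 of 31 to 7 of 19). Prox1 went from 64.97 to 330.6 RPM (12 of 31 to 11 of 19), Sp8 from 580.1 to 676 RPM (22 of 31 to 15 of 19) and Nr2f2 from 332 to 230.4 RPM (22 of 31 to 14 of 19). Without the highest cell at each age, Meis2 went from 3.27 to 106.9 RPM, Etv1 from 8.72 to 64.9 and Prox1 from 34.4 to 277.5. Sp8 then went from 513.2 to 546.4 RPM and Nr2f2 from 239.9 to 187.6. At P5 Tiam2 was in 5 of 7 type 2 INs with Etv1 and 4 of 12 without, and in 4 of 7 with Meis2 and 5 of 12 without. Whether the type 2 change differs from the changes in types 1 and 3 was not tested, and age cannot be told apart here from library set or from the tissue digestion, which was warmer at E18 and P2 than at P5.

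Tiam1, the paralogue, was sparse in every group. Its median was 0 in all 7 groups, and its share of cells above 10 RPM ranged from 2 of 22 (9.09%, P5 type 3) to 8 of 31 (25.8%, P2 type 2). Among type 1 INs that level was passed by 4 of 22 at P2 and by 8 of 34 at P5, the highest at P5 having 512 RPM. The counting intervals of the differences between neighbouring groups in the order of Tiam1 shares span 0. The share in type 1 less that in the other types was -4.55 points at P2 (-22.5 to 18.1) and 11.3 points at P5 (-6.02 to 29.2). Per kilobase of exon, pooled Tiam2 in P5 type 1 INs was 41.7 RPM and Tiam1 was 2.58 RPM. In E18 cells the corresponding levels per kilobase were 2.57 for Tiam2 and 1.26 for Tiam1.

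Single cells carried several pooled Tiam1 values. The 87.8 RPM of P2 type 3 INs fell to 14.3 without its highest cell, which held 966 RPM and 84.98% of the read pairs. The same held for the highest P5 type 2 cell (428 RPM), without which 26.7 RPM became 6.36. Tiam2 in P5 type 3 INs was likewise 99.2% from 1 cell and stood at 0.0783 RPM without it. By contrast the pooled Tiam2 level of type 1 INs was 345 RPM at P2 and 479 at P5 without the highest cell.

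**Figure D2:**
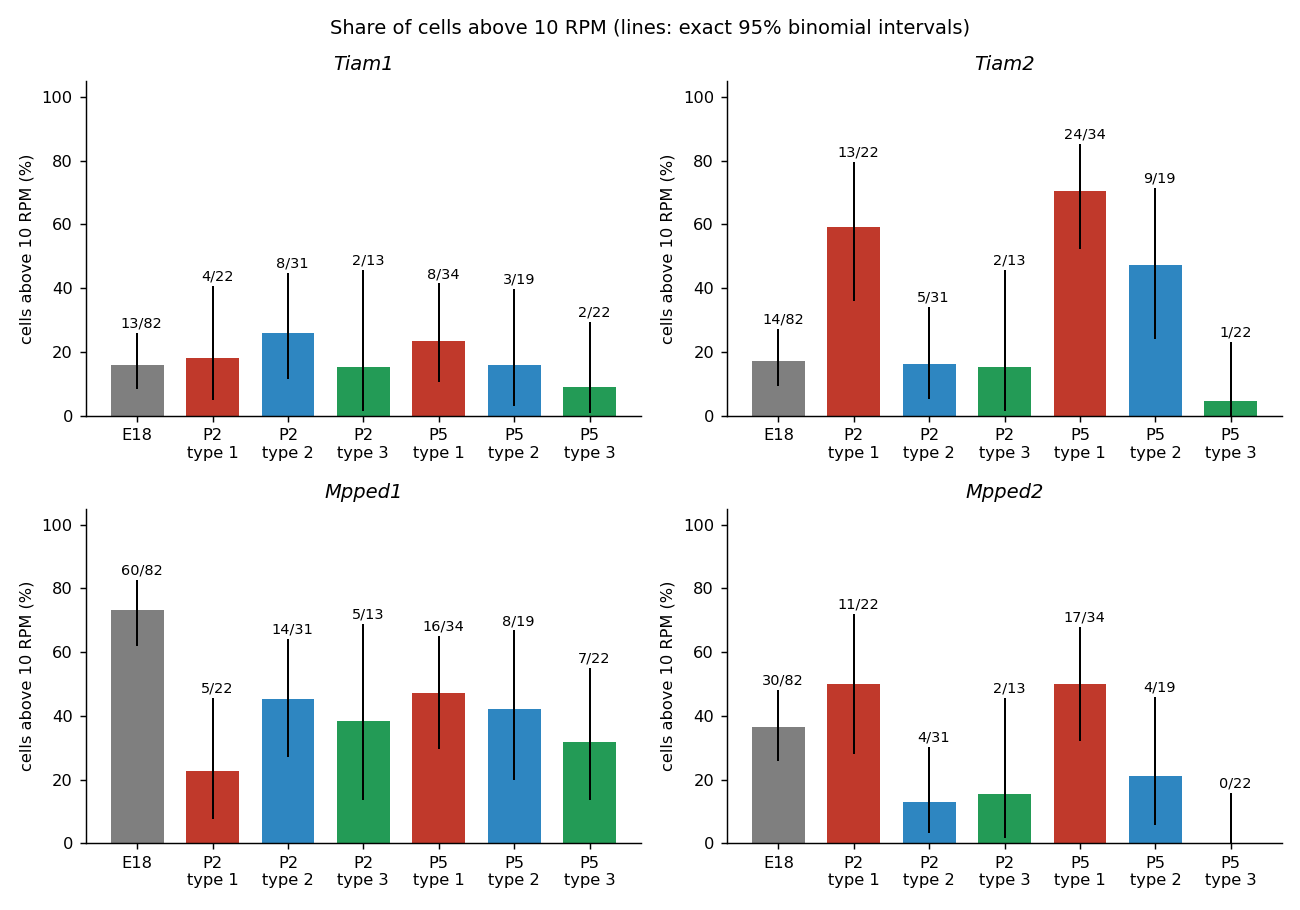
Share of cells above 10 RPM on the vertical axis for each gene by group, with the number of cells over each bar and exact 95% binomial intervals as lines. Tiam2 and Mpped2 have their tallest bars in type 1 INs, Mpped1 at E18 (73.2%), and the Tiam1 bars range from 9.09% to 25.8%.

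Mpped2 passed 10 RPM in 50% of type 1 INs at both ages, 11 of 22 at P2 (28.2 to 71.8) and 17 of 34 at P5 (32.4 to 67.6). The P2 type 1 values ran from 0 to 1105 RPM with a median of 11.4, and the P5 type 1 values from 0 to 705 with a median of 14.5. Type 2 INs had a median of 0 at both ages and highest values of 511 and 196.3 RPM. P2 type 3 INs had a median of 0.147 and a single cell at 1071, and P5 type 3 INs did not exceed 0.127 RPM. All groups overlapped at 0, and cells above 100 RPM numbered 6 and 11 in type 1 at P2 and P5 against at most 2 in any other postnatal group.

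In pooled levels, Mpped2 stood at 163.7 RPM in P2 type 1 INs and 123.1 RPM in P5 type 1 INs. Type 2 held 25.6 and 27.5 RPM at these ages, and 10.4 and 17.8 RPM without the highest cell of each. In P5 type 3 INs Mpped2 had 2 read pairs in 22 cells, 0.0115 RPM (0.00139 to 0.0416), and 0 of 22 cells passed 10 RPM, which allows a share of up to 13.6%. Its P2 type 3 level of 57.6 RPM was 6.46 without the highest cell. Mpped2 was already present at E18, in 30 of 82 cells (36.6%, 26.2 to 47.9) at 122.8 RPM pooled and up to 1292 in a cell. The counting intervals of the differences between the Mpped2 shares of P2 type 1, P5 type 1 and E18 cells span 0. P5 type 1 less E18 was 13.4 points (-5.84 to 32.02). That difference depended on the E18 cells taken, as given below for markers of another IN class. Type 2 at P5 exceeded type 3 at P5 by 21.1 points (1.601 to 43.3). All 4 of those type 2 cells were above 10 RPM for Meis2, with Mpped2 in 4 of 7 type 2 INs with Meis2 and 0 of 12 without.

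Mpped1 had another order, with E18 first. The 82 E18 cells ran from 0 to 4021 RPM with a median of 254, and 60 of them (73.2%, 62.2 to 82.4) passed 10 RPM. Only 3 E18 cells had no Mpped1 read pair. The P2 medians were 0, 1.45 and 0.154 RPM in types 1, 2 and 3, and the P5 medians were 4.79, 6.43 and 3.74. Pooled, Mpped1 went from 595 RPM (594 to 597) at E18 to 64.1, 120.9 and 113.5 in P2 types 1, 2 and 3 and to 36.4, 321 and 95.6 in P5 types 1, 2 and 3. Without the highest cell of the group, type 3 stood at 50.6 RPM at P2 and 49.5 at P5. The share of cells was 36.8 points lower at P2 than at E18 (-50.3 to -20.8) and 31.8 points lower at P5 than at E18 (-45.3 to -16.4). The Mpped1 shares of the 6 postnatal groups ran from 47.1% in P5 type 1 to 22.7% in P2 type 1. The counting intervals of the differences between neighbours in this order span 0.

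Mpped1 was low in most P5 type 1 INs, with a median of 4.79 RPM. The highest cell held 27.3% of the read pairs, and the pooled level was 27.6 RPM without it. The share of P5 type 1 INs above 10 RPM, 16 of 34, stood beside 15 of 41 in the other P5 types (difference 10.5 points, -11.4 to 31.2, which spans 0). That difference was -3.09 points above 1 RPM and -4.16 points when scaled to read pairs on genes, so its sign depended on the setting. Of those 16 cells, 13 lay between 10 and 100 RPM, their median was 51.1 RPM and the highest value in type 1 was 248. Type 2 at P5 reached 3527 and 1231 RPM in its highest cells, and its pooled 321 RPM was 93.1 without the first of them. At E18, 52 of 60 cells above 10 RPM were above 100. At P2, 5 of 22 type 1 INs passed 10 RPM against 19 of 44 other cells, a difference of -20.5 points (-39.7 to 4.27).

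Markers of another IN class moved with Mpped1 among the E18 cells. Of 6 markers of INs from the medial ganglionic eminence (MGE: Lhx6, Sst, Nkx2-1, Pvalb, Sox6 and Satb1), 2 or more passed 10 RPM in 51 of 82 E18 cells. At P2 this held for 0 of 22, 8 of 31 and 3 of 13 cells of types 1, 2 and 3, and at P5 for none of the cells (0 of 34, 0 of 19 and 0 of 22). Pvalb was at 0 in every group. The summed level of the list had a median of 468 RPM at E18 (range 0.201 to 3603) and medians from 1.41 to 5.45 in the postnatal groups, whose ranges overlapped that of E18 with maxima from 92.3 to 3412. Mpped1 passed 10 RPM in 46 of the 51 E18 cells with 2 or more MGE markers (90.2%, 78.6 to 96.7) and in 14 of the 31 with fewer (45.2%, 27.3 to 63.97). Against the latter 31 cells the P5 type 1 share of Mpped1 was 1.90 points higher (-21.2 to 24.7), in place of 26.1 points lower (-43.8 to -6.82) against all E18 cells. The pooled level of those 31 cells was 140.9 RPM, with a median of 4.28, and the log2 fold of P5 type 1 over them was -1.92, still below 0.

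Mpped2 was also more frequent in E18 cells with MGE markers. It passed 10 RPM in 25 of 51 E18 cells with 2 or more MGE markers (49.02%) and in 5 of 31 with fewer (16.1%, 5.45 to 33.7). P5 type 1 INs exceeded those 31 cells by 33.9 points (10.9 to 52.2). Tiam2 was above 10 RPM in 4 of the 51 (7.84%) and in 10 of the 31 (32.3%, 16.7 to 51.4), and P5 type 1 INs exceeded the 31 by 38.3 points (14.0 to 56.9). Tiam1 was above 10 RPM in 9 of 51 and 4 of 31.

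Transcripts of excitatory neurons were also looked for, since Mpped1 is expressed in that class. At least 1 of 9 excitatory markers (Neurod1, Neurod2, Neurod6, Tbr1, Slc17a6, Slc17a7, Emx1, Eomes and Fezf2) passed 10 RPM in 16 of 60 Mpped1-expressing E18 cells and in 1 of 22 other E18 cells. The summed level of the list ranged from 0 to 1926 RPM in the former with a median of 0.927, and from 0 to 24.6 with a median of 0.434 in the latter, in which Slc17a6, Slc17a7, Emx1 and Fezf2 were at 0. In the 65 E18 cells with no such marker, Mpped1 was still above 10 RPM in 44 (67.7%, 54.95 to 78.8) at 597 RPM pooled. Tiam2 was above 10 RPM in 8 of the 17 E18 cells with an excitatory marker and in 6 of these 65. Postnatally 0 to 2 cells of a group had such a marker, and Slc17a7, Emx1 and Neurod1 were at 0 in all 6 postnatal groups. The highest Mpped1 cell of P2 type 1 INs (769 RPM) had 2 excitatory markers and none of the 8 IN markers above 10 RPM, and the group's 64.1 RPM was 33.3 without it. The highest Mpped2 cell of P2 type 1 (1105 RPM) had 1 excitatory marker above 10 RPM and 7 IN markers, and the pooled level was 120.3 RPM without it.

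Against all genes, the folds placed the members in different parts of the distribution. Folds are log2 ratios of pooled levels after adding 1 RPM to each, taken over the genes that passed 10 RPM in over 5% of the cells in a comparison. At P2, Tiam2 had a log2 fold of 4.45 for type 1 over the other types, rank 57 of 8400 genes, and Mpped2 2.30, rank 491. At P5 they had 2.93 (rank 296 of 9675) and 3.03 (rank 269). The share of genes at a log2 fold of at least 1 was 19.4% higher and 31.9% lower at P2 and 23.6% higher and 23.7% lower at P5, and since these folds chose Tiam2 and Mpped2 nothing is read from them. Mpped1 had -0.89 at P2 and -2.51 at P5, rank 8906 of 9675, where 23.7% of genes were at least 1 log2 unit lower and 7.95% lay below Mpped1. The P2 fold of Mpped1 was -1.81 without the highest type 1 cell, the one with no IN marker above 10 RPM, and -1.55 as a difference of mean log2(RPM + 1). Its P5 fold was -0.32 as such a difference, no longer past 1, and -1.35 once the highest type 2 cell was left out. Tiam1 had -2.03 at P2, which was -1.34 without its highest type 3 cell and -0.47 as a difference of mean log2(RPM + 1). At P5 it had 0.45, which was -0.36 without its highest type 1 cell and 1.53 once the highest type 2 cell was left out.

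**Figure D3:**
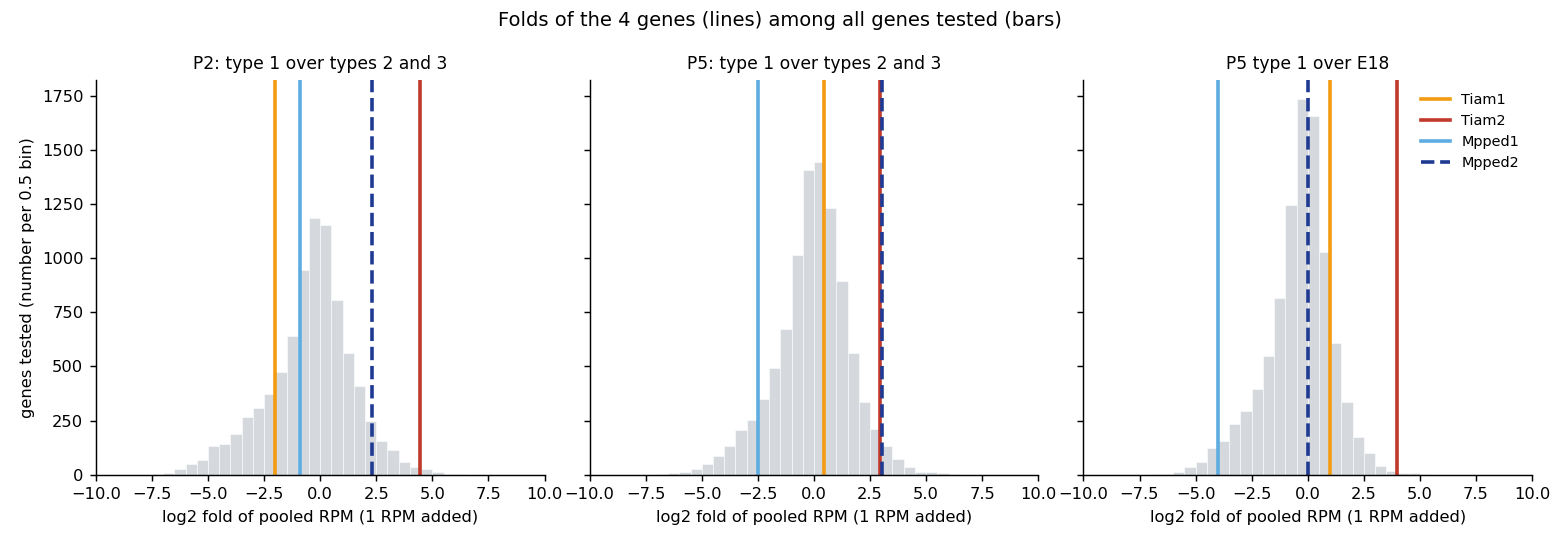
Number of genes (vertical axis) by log2 fold of pooled RPM (horizontal axis) for type 1 over types 2 and 3 at P2, the same at P5, and P5 type 1 over E18. Coloured lines mark the 4 genes, and Tiam2 (4.45, 2.93 and 3.98) lies at the right of each distribution whereas Mpped1 lies to the left (-0.89, -2.51 and -3.995).

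From E18 to P5 type 1 INs, 13.4% of 9643 genes were at least 1 log2 unit higher and 27.8% at least 1 lower. Tiam2 had a log2 fold of 3.98, rank 20 from the top, from P5 type 1 values that also chose it, so nothing is read from this rank. Mpped1 had -3.995, with 2.55% of genes below it. Mpped2 stood at 0.00 and Tiam1 at 0.98. Against the 31 E18 cells with fewer than 2 MGE markers the folds were 3.21 for Tiam2, -1.92 for Mpped1, 0.90 for Mpped2 and 1.90 for Tiam1, the last of them then past 1. The median over all genes was -0.24. The P5 type 1 cells are also in the fold against the other P5 types, so these comparisons share cells.

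Within the 3 library sets that held P5 cells, Tiam2 stood at 859, 482 and 279 RPM in type 1 INs of sets B, C and D, in 9 of 11, 7 of 11 and 8 of 12 cells. The other P5 types held 110, 30.7 and 70.3 RPM in 2 of 4, 1 of 6 and 7 of 31 cells. The Tiam2 and Mpped2 values are of the cells that chose these genes. Mpped2 in type 1 was 131.3, 97.7 and 139.4 RPM in 4 of 11, 4 of 11 and 9 of 12 cells, against 0.0261, 6.71 and 17.7 RPM in 0 of 4, 1 of 6 and 3 of 31 other cells. Pooled Mpped1 was lower in type 1 than in the other types in each set (58.9, 29.5 and 22.3 against 270, 876 and 73.3 RPM). Its share was lower in type 1 in sets B (7 of 11 against 4 of 4) and C (4 of 11 against 3 of 6) and higher in set D (5 of 12 against 8 of 31). At E18 the Tiam2 share was 5 of 48, 2 of 9 and 7 of 25 in sets B, C and D, the Mpped2 share 13 of 48, 4 of 9 and 13 of 25, and the Mpped1 share 33 of 48, 6 of 9 and 21 of 25. The P5 type 1 share of Mpped1 was below the E18 share of the same set in all 3 sets. For Tiam1 the P5 fold of type 1 over the other types was 4.04, -0.38 and 0.95 within sets B, C and D, on 3 of 11, 3 of 11 and 2 of 12 type 1 cells above 10 RPM.

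Depth was compared between cells above 10 RPM and the rest. In P5 type 1 INs, cells above 10 RPM for Tiam2 had a median of 9008419 mapped read pairs against 12461814 in those at or below. The medians for Mpped2 were 9551359 and 10999736. In P2 type 1 INs the order was the other way, at 10031988 against 9739266 for Tiam2 and 9832305 against 9629800 for Mpped2. At E18, cells above 10 RPM for Mpped1 had 9200334 against 9814059, and those for Mpped2 9786043 against 9200334. Near the threshold, 6 cells lay between 5 and 10 RPM and 9 between 10 and 20 RPM for Tiam1, 1 and 2 for Tiam2, 7 and 8 for Mpped1 and 6 and 4 for Mpped2. For Tiam2 the values nearest below it were 5.84, 4.96 and 3.73 RPM and those nearest above 11.3, 18.3 and 21.6. The nearest values were 8.73 and 12.0 for Tiam1, 7.64 and 10.9 for Mpped1, and 9.79 and 10.9 for Mpped2.

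The E18 cells, whose grouping used no type, allowed the genes to be set against the factors that mark the postnatal types. Meis2, Etv1 and Sp8 are transcription factors of lateral ganglionic eminence lineages and olfactory bulb INs, and Prox1 and Nr2f2 of INs of the caudal ganglionic eminence. Tiam2 passed 10 RPM in 6 of 11 E18 cells above 10 RPM for Meis2 (54.5%, 23.4 to 83.3) and in 8 of 71 others (11.3%, 4.99 to 21.0). It passed in 5 of 7 cells with Etv1 (71.4%, 29.0 to 96.3) and in 9 of 75 without (12.0%, 5.64 to 21.6). The pooled Tiam2 level was 115.7 RPM with Meis2 and 19.0 without, and 232 RPM with Etv1 and 12.0 without. The highest Tiam2 cell, at 829 RPM, was above 10 RPM for both factors and so entered both higher levels. It held 36.4% of the Tiam2 read pairs of E18, so these levels rest in large part on 1 cell. With Sp8 (4 of 20 against 10 of 62), Prox1 (2 of 10 against 12 of 72) and Nr2f2 (3 of 25 against 11 of 57) the Tiam2 shares had overlapping intervals. Markers of excitatory neurons moved with Tiam2 at E18: 8 of 14 cells above 10 RPM for Tiam2 had 2 or more of the 9 markers, against 4 of 68 others, and their summed level had a median of 404 RPM (0 to 1926) against 0.630 (0 to 1470). Of the 11 cells with Meis2, 7 had at least 1 such marker. In the 65 cells with none, Tiam2 passed 10 RPM in 2 of 4 with Meis2 and 4 of 61 without, and in 2 of 4 with Etv1 and 4 of 61 without. In the 17 cells with such a marker, Tiam2 was in 4 of 7 with Meis2 and 4 of 10 without, and in 3 of 3 with Etv1 and 5 of 14 without. By MGE markers, Tiam2 was in 5 of 5 cells with Meis2 and 5 of 26 without among the 31 with fewer than 2, and in 1 of 6 and 3 of 45 among the 51 with 2 or more. Of the 11 cells with Meis2, 8 came from library set D, where Tiam2 was in 3 of 8 with Meis2 and 4 of 17 without.

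Mpped2 passed 10 RPM in 9 of 11 E18 cells with Meis2 (81.8%, 48.2 to 97.7) and in 21 of 71 without (29.6%, 19.3 to 41.6). Within set D it was in 7 of 8 with Meis2 and 6 of 17 without. In cells with no excitatory marker the counts were 3 of 4 and 20 of 61, and in cells with such a marker 6 of 7 and 1 of 10. In cells with fewer than 2 MGE markers they were 4 of 5 and 1 of 26, and in those with 2 or more 5 of 6 and 20 of 45. Mpped2 was less frequent with Nr2f2 (3 of 25, 12.0%, 2.55 to 31.2) than without (27 of 57, 47.4%, 33.98 to 61.03), and 3 of 20 cells with Sp8 held it against 27 of 62 without. Mpped1 was less frequent with Sp8 (7 of 20, 35%, 15.4 to 59.2, against 53 of 62, 85.5%, 74.2 to 93.1) and with Nr2f2 (11 of 25, 44%, 24.4 to 65.1, against 49 of 57, 85.96%, 74.2 to 93.7). MGE markers moved with these contrasts, as 17 of the 20 cells with Sp8 and 18 of the 25 with Nr2f2 had fewer than 2 of them. Among the 31 cells with fewer than 2, Mpped1 was in 4 of 17 with Sp8 and 10 of 14 without, and in 5 of 18 with Nr2f2 and 9 of 13 without. Among the 51 cells with 2 or more, it was in 3 of 3 with Sp8 and 43 of 48 without, and in 6 of 7 with Nr2f2 and 40 of 44 without. Mpped2 was in 0 of 18 with Nr2f2 and 5 of 13 without among the 31, and in 3 of 7 and 22 of 44 among the 51. With Sp8 it was in 3 of 17 against 2 of 14 among the 31 and in 0 of 3 against 25 of 48 among the 51. Tiam1 shares with and without each of the 5 factors had overlapping intervals. All of these cells are from pooled brains of 1 age, and the 20 pairs of gene and factor were looked at together.

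**Figure D4:**
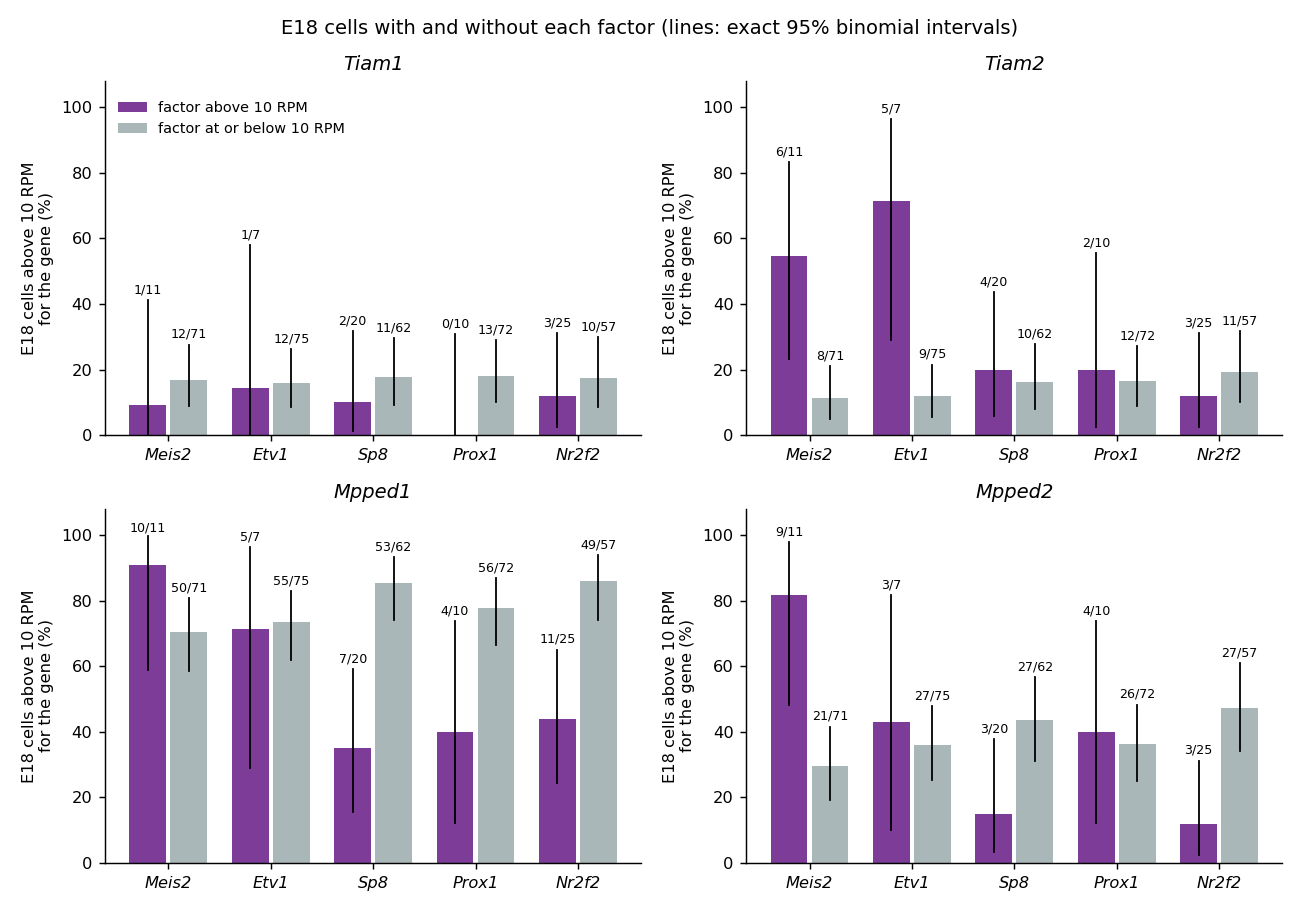
Share of E18 cells above 10 RPM for each gene (vertical axis) among cells above 10 RPM for a factor (purple) and the rest (grey), with counts over the bars and exact 95% binomial intervals as lines. Tiam2 is more frequent with Meis2 (6/11 against 8/71) and Etv1 (5/7 against 9/75), Mpped2 with Meis2 (9/11 against 21/71), and Mpped1 is less frequent with Sp8 (7/20 against 53/62) and Nr2f2 (11/25 against 49/57).

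Genes of a family were also set against each other within cells. At E18, Mpped1 passed 10 RPM in 29 of the 30 cells that expressed Mpped2 (96.7%, 82.8 to 99.9) and in 31 of the 52 that did not (59.6%, 45.1 to 72.99), and both genes were more frequent in cells with MGE markers. In P5 type 1 INs this relation was not seen, with Mpped1 in 8 of 17 cells with Mpped2 and in 8 of 17 without. Tiam1 and Tiam2 were above 10 RPM together in 1 of 82 E18 cells, 1 of 22 P2 type 1 INs and 6 of 34 P5 type 1 INs. Both Tiam2 and Mpped2 passed 10 RPM in 8 of the 22 P2 type 1 INs and in 11 of the 34 P5 type 1 INs. Of the P5 type 1 INs, 13 held Tiam2 alone of these 2 genes, 6 Mpped2 alone and 4 neither. In P2 type 1 INs these counts were 5, 3 and 6. Pearson's r of log2(RPM + 1) between Tiam2 and Mpped2 was 0.30 over all postnatal cells and 0.11 over the 56 type 1 INs, cells that share pools and library sets.

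The type factors were also set against the members inside type 1. Mpped2 was above 10 RPM in 8 of 13 P2 type 1 INs with Meis2 and 3 of 9 without, whereas 33 of 34 P5 type 1 INs held Meis2 and left no comparison. With Etv1, Mpped2 was in 8 of 9 P2 type 1 INs against 3 of 13 without, and in 10 of 21 against 7 of 13 at P5. Tiam2 was in 9 of 13 P2 type 1 INs with Meis2 and 4 of 9 without, and in 14 of 21 P5 type 1 INs with Etv1 and 10 of 13 without. Types were assigned on these same counts, so these counts within type 1 are a description.

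The genes most like each member were ranked by Pearson's r of log2(RPM + 1) over all postnatal cells among 6336 genes, cells that differ in type, library set and depth. For Tiam2 they were Ccnd2 (0.53), a cyclin of the G1 phase, Gm10282 (0.49), Spon1 (0.48), an extracellular matrix protein of axon guidance, Igf1r (0.48), the receptor of insulin-like growth factor 1, and Meis2 (0.47). Within the 56 type 1 INs the r with Ccnd2 was 0.50 and with Igf1r 0.49, but that with Meis2 was 0.13. Over the 82 E18 cells the r was 0.45 with Ccnd2, 0.38 with Meis2 and -0.06 with Igf1r. For Mpped2 the list was Meis2 (0.50), Runx1t1 (0.45), a transcriptional corepressor, Prokr2 (0.40), a prokineticin receptor, Etv1 (0.39) and Kat6b (0.39), a histone acetyltransferase. Within type 1 INs the first 4 of these were 0.17, 0.25, 0.19 and 0.19, and Kat6b was 0.47.

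The paralogues had lower values over all postnatal cells. For Mpped1 the highest r was 0.30 (Ppp2r2b, Mef2c and Dnajc9, then Ptprd at 0.29 and Zfp512b at 0.27). For Tiam1 it was 0.32 with Polr2h, followed by 2810429I04Rik, Smim13, Gm12088 and ENSMUSG00000102798 between 0.28 and 0.31. Over the E18 cells these Tiam1 values lay between -0.18 and 0.06. Within the 56 type 1 INs the r of Mpped1 with Zfp512b was 0.49 and that of Tiam1 with Smim13 was 0.46, beside 0.17 to 0.33 for the other 4 genes of Mpped1 and 0.27 to 0.39 for those of Tiam1.

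The Rac pathway around Tiam2 was read from lists of its other genes, each with the fold of type 1 over the other types. The first list held 24 further genes, Rac exchange factors and the ELMO partners of DOCK exchange factors. Of these, 15 were measured at P2 and 17 at P5, with 3 at least 1 log2 unit higher and 3 lower at each age. The background shares were 19.4% and 31.9% at P2 and 23.6% and 23.7% at P5. Both ELMO genes were among the higher genes at P5 (1.61 and 1.65), so the counts are not of exchange factors alone. The median fold was -0.19 at P2 and -0.06 at P5, against -0.25 and 0.04 over all genes. Elmo2, a partner of DOCK exchange factors, was past the fold of 1 at both ages (1.83 and 1.65), in 3 of 22 and 10 of 34 type 1 INs. At P2, 7 of the 31 type 2 INs and 2 of the 13 type 3 INs passed 10 RPM for Elmo2, so its share was not higher in type 1 at that age and the level of 74.1 RPM rested on 3 cells. At P5 the counts were 3 of 19 in type 2 and 2 of 22 in type 3.

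The Rac GTPases and the GAPs that switch Rac off were counted in the same way. Of 11 measured Rac GTPases and GAPs, 4 were higher and 2 lower at P2, where 19.4% of all genes were higher and 31.9% lower, and 0 were higher and 1 lower at P5, where these shares were 23.6% and 23.7%. The median fold was 0.46 at P2 and -0.20 at P5, against -0.25 and 0.04 over all genes. Srgap1, a Slit-Robo GAP, had a fold of 1.26 at P2 and -4.12 at P5, and was in 7 of 22 and 2 of 34 type 1 INs. Of the effectors and WAVE complex, 3 of 13 were higher and 2 lower at P2, and 0 of 14 higher and 2 lower at P5, with medians of -0.25 and 0.11 beside the same shares and medians over all genes. Nckap1, a WAVE subunit, went from 1.12 to -3.33, with 9.69 RPM in P5 type 1 INs against 154.9 in P5 type 2. Wasf1, another WAVE subunit, was lower at both ages (-2.18 and -1.37).

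Among 14 proteins known as Tiam partners, 11 were measured at each age, of which 1 was higher and 6 lower at P2 and 2 were higher and 3 lower at P5. Over all genes 19.4% were higher and 31.9% lower at P2, and 23.6% higher and 23.7% lower at P5. The medians of the list were -1.03 and -0.37, against -0.25 and 0.04 over all genes. Ntrk2, the BDNF receptor, was lower at both ages (-2.77 and -2.21), in 3 of 22 and 6 of 34 type 1 INs against 52 of 82 E18 cells. Grin1, the obligate NMDA receptor subunit, ranged from 1.71 to 25.5 RPM over the 7 groups and had -1.95 and -1.18. These comparisons have no labelled replicate pools, so no gene is called changed.

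Cyclic nucleotide phosphodiesterases were read as a further list, since Mpped2 hydrolyses cyclic nucleotides in vitro. The list includes non-catalytic subunits. Of 24 phosphodiesterase genes with a row, 10 were measured at P2, with 1 higher and 3 lower, and 14 at P5, with 3 higher and 5 lower. Over all genes 19.4% were higher and 31.9% lower at P2, and 23.6% and 23.7% at P5. The median fold of the list was 0.26 at P2 and -0.64 at P5, against -0.25 and 0.04. Pde4b was lower in type 1 at both ages (-2.07 and -4.33), as was Pde3b (-3.34 and -1.85). Pde5a had -1.48 at P2 and 1.72 at P5.

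Of the nearest genes with a row in the table, Scaf8 was higher in type 1 than in types 2 and 3 at both ages, as was Tfb1m, which overlaps Tiam2 and is given above. Beside Tiam2, Pisd-ps2 was at 13.4 RPM in P2 type 1 and 8.18 RPM in P5 type 1 INs, Scaf8 at 49.8 and 89.6 (in 4 of 22 and 12 of 34 cells), Cldn20 at 20.8 (1 cell above 10 RPM) and 0, and Nox3 at 0 in all 7 groups. In types 2 and 3 Scaf8 was at 12.8 and 1.16 RPM at P2 and 48.9 and 12.2 RPM at P5. Beside Mpped2, Gm14014, BB218582, Gm13901 and Gm13902 did not exceed 3.16 RPM in any group. Beside Mpped1, Scube1 was at 32.5 RPM at E18 and at most 12.0 in the postnatal groups, Ttll12 was at 20.8 RPM at E18 and from 0.0120 to 40.7 postnatally, Efcab6 reached 20.9 in P2 type 2, and Rpl31-ps22 was at 0. Beside Tiam1, Krtap7-1 and Krtap11-1 were at 0, Sod1 was at 297 and 283 RPM in P2 and P5 type 1 INs and Scaf4 at 0.294 and 11.4.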

How the data were processed

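Single Htr3a-GFP+ cells were captured on a microfluidic chip and their libraries, which carry no molecular identifiers, were sequenced from both ends. The authors dissociated E18 and P2 tissue with warm Pronase and P5 tissue at room temperature, aligned read pairs with TopHat to GRCm38 and deposited the HTSeq 0.6.1 count of read pairs per gene, as raw counts with no normalization. Whether counting used strand is not given in the sources used here. All columns of cells were used. RPM was the count times the coefficient per cell in the labels. Total counts on genes ranged from 1596087 to 11692823 per cell.

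Pooled RPM has exact Poisson intervals, shares exact Clopper-Pearson intervals and differences of shares Newcombe intervals, all at 95%. These cover counting error only, and a share of 0 is limited by 3 cells. Folds added 1 RPM to pooled RPM. Genes named are the 4 members, 5 type factors, the 5 genes most like each member, list genes past a log2 fold of 1 in type 1 at both ages, and the nearest 2 genes on each side. The members and lists were chosen with earlier results of these data known. Splits of E18 cells by MGE or excitatory markers, and of the factor contrasts by these and by library set, were added after seeing the data. From the excitatory marker list, 1 gene is not reported here and entered no count. Gene models were GENCODE M21, and 42462 of the 43629 identifiers had a symbol. Promoter windows were found for all 4 genes. Alternatives changed the threshold, depth, scale, pseudocount, gene filter, single cells and library sets. Only the pooled fold was run on simulated counts, for P5 cells, and the other steps were not simulated. Python 3.11.15, numpy 2.4.6, pandas 2.3.3 and scipy 1.17.1 were used. Doublets were not called.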

Additional observations from a re-analysis of the deposited data

Results flagged for a closer look

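The type 1 shares of the paralogues lay on opposite sides of those of the other types at P2 and P5, and these differences between the ages were not tested. For Tiam1 the type 1 share above 10 RPM differed from that of the other types by -4.55 points at P2 and 11.3 points at P5, and its pooled fold on the log2 scale went from -2.03 to 0.45. The former was -0.47 as a difference of mean log2(RPM + 1). For Mpped1 the share difference was -20.5 points at P2 and 10.5 points at P5, while its pooled fold was below 0 at both ages (-0.89 and -2.51). The P5 share difference of Mpped1 was negative above 1 RPM, above 50 RPM and when scaled to read pairs on genes, and the counting intervals of all 4 share differences span 0. All P2 cells are from library set A and no P5 cell is.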

How the results depend on the processing

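The share of cells in type 1 less that of the other types, or of E18, was recomputed 60 times over the 4 genes, and 51 values lay within the counting interval of the reported one, which for Tiam2 and Mpped2 only describes the cells that chose them. Among those, the P5 difference of Mpped1 was negative above 1 RPM (-3.09), above 50 RPM (-0.86) and scaled to read pairs on genes (-4.16), and that of Tiam1 with at least 1 read pair (-4.74). The cause of the shifts was not tested. At P5 the difference for Tiam2 was 46.2 points, and 19.4 (-0.467 to 36.8, which spans 0) with at least 1 read pair as the threshold, where 27 of 41 other cells count. For Mpped2 it was 65.8 points at that threshold, 66.7 above 1 RPM, 19.7 within library set C and 65.3 within set D, and for Mpped1 -36.4 within set B (4 other cells) and -13.6 within set C (6 other cells). Limiting E18 to cells with fewer than 2 MGE markers turned the P5 type 1 less E18 difference of Mpped1 to 1.90 points and raised that of Mpped2 to 33.9.

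Of 60 recomputed folds, 58 kept their sign and 54 their side of a log2 fold of 1. Tiam2 ranged from 3.89 to 4.85 at P2 and from 1.97 to 4.40 at P5, and Mpped2 from 1.86 to 2.86 and from 2.46 to 7.01. Tiam1 at P2 was -1.34 without the highest other cell and -0.47 as a difference of mean log2(RPM + 1), and Mpped1 at P2 -1.81 without the highest type 1 cell and -1.55 as such a difference. Tiam1 at P5 was -0.36 without the highest type 1 cell, 1.53 without the highest other cell and -0.38 within set C. Mpped1 at P5 was -0.32 as a difference of mean log2(RPM + 1) and -1.35 without the highest other cell. Genes at least 1 log2 unit higher and lower in type 1 numbered 1630 and 2679 of 8400 at P2 and 2283 and 2294 of 9675 at P5. They were 2971 and 5116 at P2 and 3335 and 4146 at P5 over the 21465 and 21586 genes with any read pair, and 275 and 497 at P2 and 634 and 406 at P5 over the 2435 and 3200 genes above 10 RPM in at least 25% of cells. Values matched by library set stand in the report. The number of cells, 13 to 34 in a postnatal group, sets the width of the intervals on shares.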
